A study of Mus musculus with 14 samples.

Results

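RNA sequencing was used to set mouse hepatocytes kept for 3 weeks in the LBDXL culture (LBDXL 3W, 2 libraries) beside hepatocytes taken straight after isolation (FH, 2 libraries), and the genes that stayed apart from fresh cells are described here. These are 4 of the 14 libraries and 2 of the 7 groups of the study, taken by their labels. Hepatocytes kept for 3 weeks in the BM culture (BM 3W, 2 libraries) are given beside them as the culture of the same age. All 3 groups were from C57BL/6 liver, and none of the 3 carries a genotype label, whereas 2 other groups are labelled YAP-/-. The labels do not spell out what LBDXL or BM contains, and do not tell whether the libraries of a group stem from different mice or dishes. The p-values below measure the spread between libraries only. By its title, the study asked whether blocking YAP, when tension on the cell switches it on, keeps cultured hepatocytes working.

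Hepatocytes make most plasma proteins, clear ammonia and drugs, and share metabolic work along the axis from portal to central vein under Wnt, oxygen and hormone gradients. Pulsed growth hormone, acting through JAK2 and STAT5B, sets many of their sex-biased genes, and nuclear receptors such as CAR, PXR, PPARα and AHR set the levels of drug- and lipid-handling enzymes. Isolated hepatocytes that spread on a stiff surface lose these programmes, assemble actin stress fibres and send YAP, the coactivator of TEAD transcription factors, to the nucleus.

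The labels were first checked against the data. Hepatocyte marker transcripts summed to 255922 and 205299 CPM in LBDXL 3W 1 and 2, 40727 and 6204 CPM in BM 3W and 266428 and 263403 CPM in FH, where CPM are counts relative to library size, as scaled by edgeR's trimmed mean of M-values (TMM). Albumin alone held 17.31% and 11.37% of counts in LBDXL 3W, 4.353% and 0.4817% in BM 3W and 10.08% and 9.717% in FH. It therefore weighs heavily in these sums. Each of the 15 markers was detected in all of these libraries. Genes of the Y chromosome set the 2 LBDXL 3W libraries apart: Ddx3y, Eif2s3y, Kdm5d and Uty were at 0 in LBDXL 3W 1 and at 103, 64.1, 18.5 and 28.8 CPM in LBDXL 3W 2. In FH 1 and 2 Ddx3y was at 160 and 155 CPM, and in BM 3W 1 and 2 at 77.6 and 71.5 CPM. Both FH YAP-/- libraries, which are not compared here, had Ddx3y at 0 as well. The labels give no sex. Whether the 2 LBDXL 3W libraries came from animals of different sex, or 1 of them is labelled wrongly, cannot be told apart here. Sex-biased and growth hormone genes below, against FH and against BM 3W, are given with this limit. The 2 LBDXL 3W libraries also lay farther apart than the 2 FH libraries. The median absolute log2 ratio between libraries was 0.397 for LBDXL 3W and 0.109 for FH over 14100 genes. Across the BM groups of the study this median ran from 0.284 (BM 3W) to 0.376 (BM 3D). A spread wider than that of FH was therefore shared by the cultured groups, and was largest for LBDXL 3W. Beside a count of genes, values given as without a library are the counts when that library was left out of the fit. They stand where the count moved by over 1.5 times, and the smaller of a list's 2 counts, mostly of 1 to 3 members, often moved as much and is not followed further. Depth was 20431393 and 18905461 counts in LBDXL 3W and 19353371 and 19494797 counts in FH, within the range of 15501005 to 21220365 over all 14 libraries.

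Of 14100 genes tested with edgeR's quasi-likelihood F-test, 1656 (11.7%) were higher and 1353 (9.6%) were lower in LBDXL 3W than in FH at a Benjamini-Hochberg adjusted p under 0.05. A difference beyond 2-fold was called at 581 genes higher and 495 lower by edgeR's test against a 2-fold limit. The 95% interval of the fold change lay inside 2-fold at 4244 genes, but 264 of these had no counts in any of the 4 libraries and carry no information, which leaves 3980 (28.2% of those tested). A further 6872 genes were neither called nor bounded in this way, so for them the data do not tell which holds. Against BM 3W, which shares the LBDXL 3W libraries with the first comparison, 2980 genes (21.1%) were higher and 3343 (23.7%) were lower in LBDXL 3W. The split of calls depended on scaling: 55.0% of calls against FH were higher with TMM, 81.4% with scaling to total counts, which put the median of all genes at 0.57 against 0.09 on the log2 scale, and 82.0% or 79.4% with limma on log2(FPKM + 0.1) or log2(FPKM + 1). With scaling to total counts 3593 genes were called higher and 822 lower, and the interval lay inside 2-fold at 2874, so whether more genes were called or bounded turned with the scaling. Scaling to total counts also moved the counts of some gene lists described below. It put the number of members that fell at 3 of 24 for hepatocyte transcription factors, 4 of 15 for urea cycle genes and 10 of 30 for interferon-stimulated genes. It put the number that rose at 12 of 25 for glycolysis, 11 of 24 for cholesterol genes, 7 of 19 for female-biased genes and 10 of 12 for fetal liver genes. Without FH 1, FH 2 or LBDXL 3W 1 the higher calls numbered 582, 533 and 971 and the lower calls 631, 645 and 880.

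**Figure D1:**
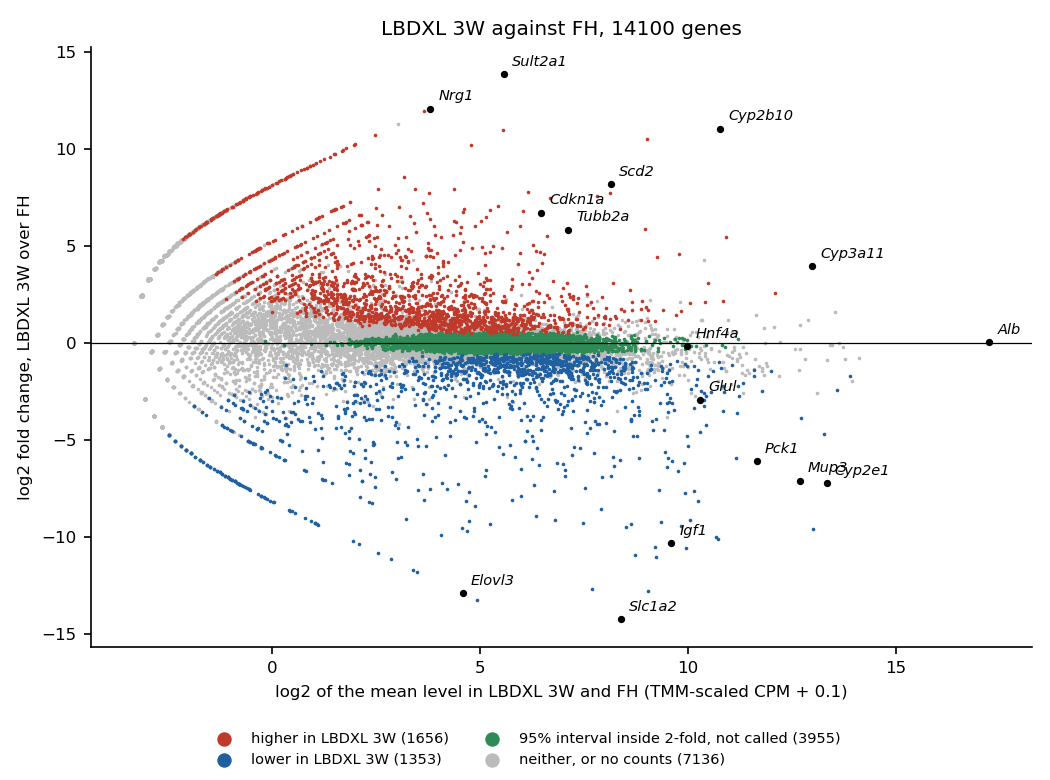
Each point is 1 of 14100 genes, with the mean level over the LBDXL 3W and FH libraries on the x axis (log2 of CPM + 0.1) and the fitted log2 fold change of LBDXL 3W over FH on the y axis. The 1656 genes called higher lie above 0 and the 1353 called lower lie below it, with genes bounded inside 2-fold in green and the rest in grey, and with Cyp2b10 and Nrg1 among the highest and Slc1a2, Elovl3 and Igf1 among the lowest.

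What did not pass the test included many of the transcripts that define the hepatocyte. Of 15 hepatocyte markers 12 did not pass, 3 fell (20%, against 9.6% of all genes) and 0 rose. Their median log2 fold change was -0.84, against 0.09 for all genes, and only 1 had an interval inside 2-fold. Of these markers 7 were lower and 1 was higher at an unadjusted p under 0.05. The number that fell moved with some libraries left out. Albumin (Alb), the main plasma protein, was the most abundant transcript per length in all 4 libraries, at 59415 and 49298 FPKM in LBDXL 3W and 37027 and 35321 FPKM in FH. FPKM is not scaled by TMM, so these values are not on the scale of the fit. In the fit of TMM-scaled counts, the difference of Alb from FH was 0.05 ± 1.06 on the log2 scale. Its 95% interval of -2.28 to 2.39 was too wide to bound it. Apolipoprotein A-I (Apoa1), the scaffold of high-density lipoprotein, ranked next among deposited FPKM in both LBDXL 3W libraries and had 10069 and 15422 CPM there and 12135 and 12958 CPM in FH. Hnf4a, the nuclear receptor that holds much of the hepatocyte programme together, had 919 and 993 CPM in LBDXL 3W, 201 and 135 CPM in BM 3W and 1065 and 1057 CPM in FH, and its interval against FH of -0.83 to 0.53 lay inside 2-fold. Arginase 1 (Arg1), which releases urea in the urea cycle, lay inside 2-fold as well, with 2294 and 2777 CPM in LBDXL 3W, 92.9 and 99.5 CPM in BM 3W and 2097 and 2300.0 CPM in FH. Both were higher in LBDXL 3W than in BM 3W on the log2 scale, Hnf4a by 2.51 ± 0.33 (adjusted p = 0.00024) and 4.72 ± 0.35 (adjusted p = 9.43e-06). Cps1, which feeds ammonia into that cycle, had 5418 and 9613 CPM in LBDXL 3W, 72.5 and 9.07 CPM in BM 3W and 13502 and 13421 CPM in FH, and its interval against FH was -2.54 to 0.86. For the bile acid importer Slc10a1 the levels were 276 and 311 CPM in LBDXL 3W and 1249 and 1276 CPM in FH (adjusted p = 0.114), and for glucose-6-phosphatase (G6pc) 104 and 257 CPM in LBDXL 3W and 786 and 749 CPM in FH (adjusted p = 0.0854). LBDXL 3W and FH did not overlap at either gene, as at 8967 of the 14100 tested.

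With TMM scaling, much of the general cell machinery was bounded within 2-fold of FH. Of 30 cytosolic ribosomal protein genes, 23 had an interval inside 2-fold and 0 were called by edgeR in either direction, with 0 at an unadjusted p under 0.05 and 0 by DESeq2. Of 28 proteasome subunit genes, 24 were inside 2-fold and 0 were called by edgeR, with 1 higher at an unadjusted p under 0.05 and 0 by DESeq2. With scaling to total counts 3 ribosomal protein genes and 3 proteasome genes rose. The median log2 fold change then moved from 0.12 to 0.60 for ribosomal protein genes and from -0.08 to 0.39 for proteasome genes. Yap1 itself lay inside 2-fold, at 97.7 and 96.3 CPM in LBDXL 3W, 80.2 and 95.5 CPM in BM 3W and 87.6 and 97.6 CPM in FH. A list of 23 genes joined the Hippo pathway, which restrains YAP, with the TEAD factors that YAP coactivates. Of these 12 lay inside 2-fold, 6 rose and 1 fell. Fewer rose without FH 1. With scaling to total counts 10 rose. Among those that rose, Amot, a scaffold that binds YAP, had 60.3 and 45.6 CPM in LBDXL 3W and 15.4 and 18.3 CPM in FH (1.65 ± 0.26, adjusted p = 0.00171).

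Among the genes that fell farthest were those that growth hormone keeps high in male liver. Of 19 tested male-biased liver genes, 17 fell and 0 rose (0 at an unadjusted p under 0.05 and 0 by DESeq2), with a median log2 fold change of -5.38 against 0.09 for all genes. With LBDXL 3W 1 left out 14 members fell, and with LBDXL 3W 2 left out 16. LBDXL 3W 1 is the library without Y-linked transcripts, so a difference in sex and the culture cannot be told apart in it, and the first of these counts rests on LBDXL 3W 2, which had those transcripts. Hsd3b5, a steroid-metabolising enzyme of male mouse liver, had 0 and 0.121 CPM in LBDXL 3W and 411 and 422 CPM in FH, which was lower by 7391-fold (95% counting interval 2046 to 61039). Elovl3, a fatty acid elongase, was at 0 in both LBDXL 3W libraries and at 47.2 and 48.4 CPM in FH, at least 281-fold lower when the floor is set at 3 counts per library. Slco1a1, an organic anion importer, had 0.159 and 1.03 CPM in LBDXL 3W and 1219 and 1194 CPM in FH (-11.02 ± 0.96, adjusted p = 6.61e-05). Mup3, 1 of the major urinary protein genes, had 154 and 39 CPM in LBDXL 3W and 12789 and 13371 CPM in FH (-7.08 ± 0.76, adjusted p = 0.000193). Mup genes are near-identical copies, so the share of reads each received in the deposited counting is uncertain.

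Transcripts of the growth hormone axis itself were low in both LBDXL 3W libraries. Igf1, the circulating growth factor made by hepatocytes under growth hormone (chromosome 10, 87858265 to 87937047 in GRCm38.p6), had 2.06 and 0.302 CPM in LBDXL 3W, 58.6 and 74.7 CPM in BM 3W and 1543 and 1533 CPM in FH, a log2 fold change against FH of -10.32 ± 1.11 (adjusted p = 0.000205). Igf1 was therefore lower in both LBDXL 3W libraries than in both BM 3W libraries as well (-5.79 ± 0.93 against BM 3W, adjusted p = 0.000772). The carrier of IGF1 in plasma, Igfals, had 2.8 and 1.87 CPM in LBDXL 3W and 151 and 147 CPM in FH (-5.99 ± 1.20, adjusted p = 0.00575). Socs2, a feedback inhibitor induced by STAT5, had 4.49 and 0.785 CPM in LBDXL 3W, 31.1 and 53.4 CPM in BM 3W and 67.6 and 67.2 CPM in FH (-4.65 ± 0.61 against FH, adjusted p = 0.000577). The growth hormone receptor gene Ghr fell less, to 184 and 194 CPM in LBDXL 3W against 1302 and 1334 CPM in FH (-2.80 ± 0.43, adjusted p = 0.00142). The prolactin receptor gene Prlr had 7.93 and 2.54 CPM in LBDXL 3W and 283 and 296 CPM in FH (-5.78 ± 0.66, adjusted p = 0.000274). In all, 10 of 16 growth hormone and STAT5 genes fell and 1 rose, with a median of -3.07. The member that rose was Bcl6, a repressor of female-biased genes in male mouse liver, at 45.2 and 39.7 CPM in LBDXL 3W and 18.6 and 20.6 CPM in FH (1.12 ± 0.23, adjusted p = 0.00679). This call was lost without FH 1 (adjusted p = 0.0709) and without FH 2 (adjusted p = 0.0514). Against BM 3W the same list had 5 members higher and 3 lower, with a median of 0.35. Over all genes 21.1% were higher and 23.7% lower in that comparison, so these counts do not set the list apart. Fewer members were higher without BM 3W 2.

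Female-biased liver genes moved in both directions, with 21.1% higher and 15.8% lower, against 11.7% and 9.6% of all genes. Of 19 tested, 4 rose (2 without FH 1 or FH 2) and 3 fell, with a median of 1.87 (1.02 with genes at 0 in a group set to their bound). Acot3, a peroxisomal acyl-CoA thioesterase, fell to 0.74 and 0.423 CPM in LBDXL 3W against 71.4 and 66.2 CPM in FH (-6.85 ± 0.44, adjusted p = 1.75e-05). Sult2a1, a hydroxysteroid sulfotransferase, had 187 and 2.54 CPM in LBDXL 3W and 0 in both FH libraries, at least 399-fold higher, with nearly all of it in LBDXL 3W 1, the library without Y-linked transcripts. This call was lost with the 4 libraries fitted alone (adjusted p = 0.145). Leaving that library out left 4 members higher and 3 lower.

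Genes of the pericentral zone, many of which depend on Wnt signals from central vein endothelium, mostly fell. Of 18 tested, 14 fell and 0 rose (0 at an unadjusted p under 0.05 and 0 by DESeq2), with a median log2 fold change of -3.11 (-2.54 with genes at 0 in a group set to their bound). Sp5, 1 of the 14, was near the floor, with 4 and 2 counts in FH and 0 in both LBDXL 3W libraries. Fewer fell with 1 fresh library left out: 9 without FH 1 and 8 without FH 2. Slc1a2, the pericentral glutamate importer (chromosome 2, 102658239 to 102790784 in GRCm38.p6), had 0 and 0.0604 CPM in LBDXL 3W, 3.5 and 4.64 CPM in BM 3W and 689 and 654 CPM in FH. It was lower than in FH by 23807-fold (95% counting interval 4272 to 940386). Lgr5, the R-spondin receptor that amplifies Wnt signalling, was at 0 in both LBDXL 3W libraries, at 2.09 and 0.809 CPM in BM 3W and at 12.9 and 10.1 CPM in FH, at least 67.5-fold lower. Ornithine aminotransferase (Oat) had 21.4 and 26.9 CPM in LBDXL 3W and 1443 and 1427 CPM in FH (-5.89 ± 0.82, adjusted p = 0.000818). Glutamine synthetase (Glul), which traps the last ammonia before blood leaves the lobule, had 265 and 325 CPM in LBDXL 3W and 2322 and 2129 CPM in FH (-2.92 ± 0.32, adjusted p = 0.00022). Cyp2e1, the ethanol-oxidising P450, had 25.8 and 248 CPM in LBDXL 3W, 74.4 and 4.19 CPM in BM 3W and 19965 and 21058 CPM in FH (-7.22 ± 1.45 against FH, adjusted p = 0.0058). Against BM 3W the list had 5 members higher and 7 lower (median -0.54), beside 21.1% higher and 23.7% lower over all genes. Periportal genes were less uniform, with 2 higher and 7 lower of 18 against FH (12 without LBDXL 3W 2 for the lower ones).

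The 250 bases upstream of the annotated start of Slc1a2 and Cyp2e1 are shown because these were the deepest and the most abundant of the pericentral falls, with the letters CTTTGA, the core bound by TCF and LEF factors of the Wnt pathway, in capitals on either strand. They are given 5′ to 3′ on the strand of the gene from RefSeq's promoter windows in GRCm38.p6. Slc1a2 lies on the plus strand at chr2:102706188-102706437 and Cyp2e1 on the plus strand at chr7:140763569-140763818.
Slc1a2: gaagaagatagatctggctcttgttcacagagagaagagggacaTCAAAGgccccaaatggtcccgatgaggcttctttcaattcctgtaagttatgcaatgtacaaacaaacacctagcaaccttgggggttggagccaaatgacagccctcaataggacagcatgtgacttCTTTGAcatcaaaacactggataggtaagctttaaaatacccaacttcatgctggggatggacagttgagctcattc
Cyp2e1: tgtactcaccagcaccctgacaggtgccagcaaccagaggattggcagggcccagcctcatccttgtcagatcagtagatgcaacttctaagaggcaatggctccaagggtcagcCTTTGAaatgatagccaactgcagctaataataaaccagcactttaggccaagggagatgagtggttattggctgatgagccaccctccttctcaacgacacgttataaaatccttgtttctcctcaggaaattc
The window of Slc1a2 held 2 matches and that of Cyp2e1 held 1. Of the 14 pericentral genes that fell, 9 had a window and 4 of these held the letters, including Sp5 near the floor. Of all 32851 windows, counted singly rather than by gene, 13.8% held them. The difference was not tested. The start of Slc1a2 used here lies inside the annotated span of the gene, which has further starts upstream. A match describes letters in this window and is no evidence of binding.

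**Figure D2:**
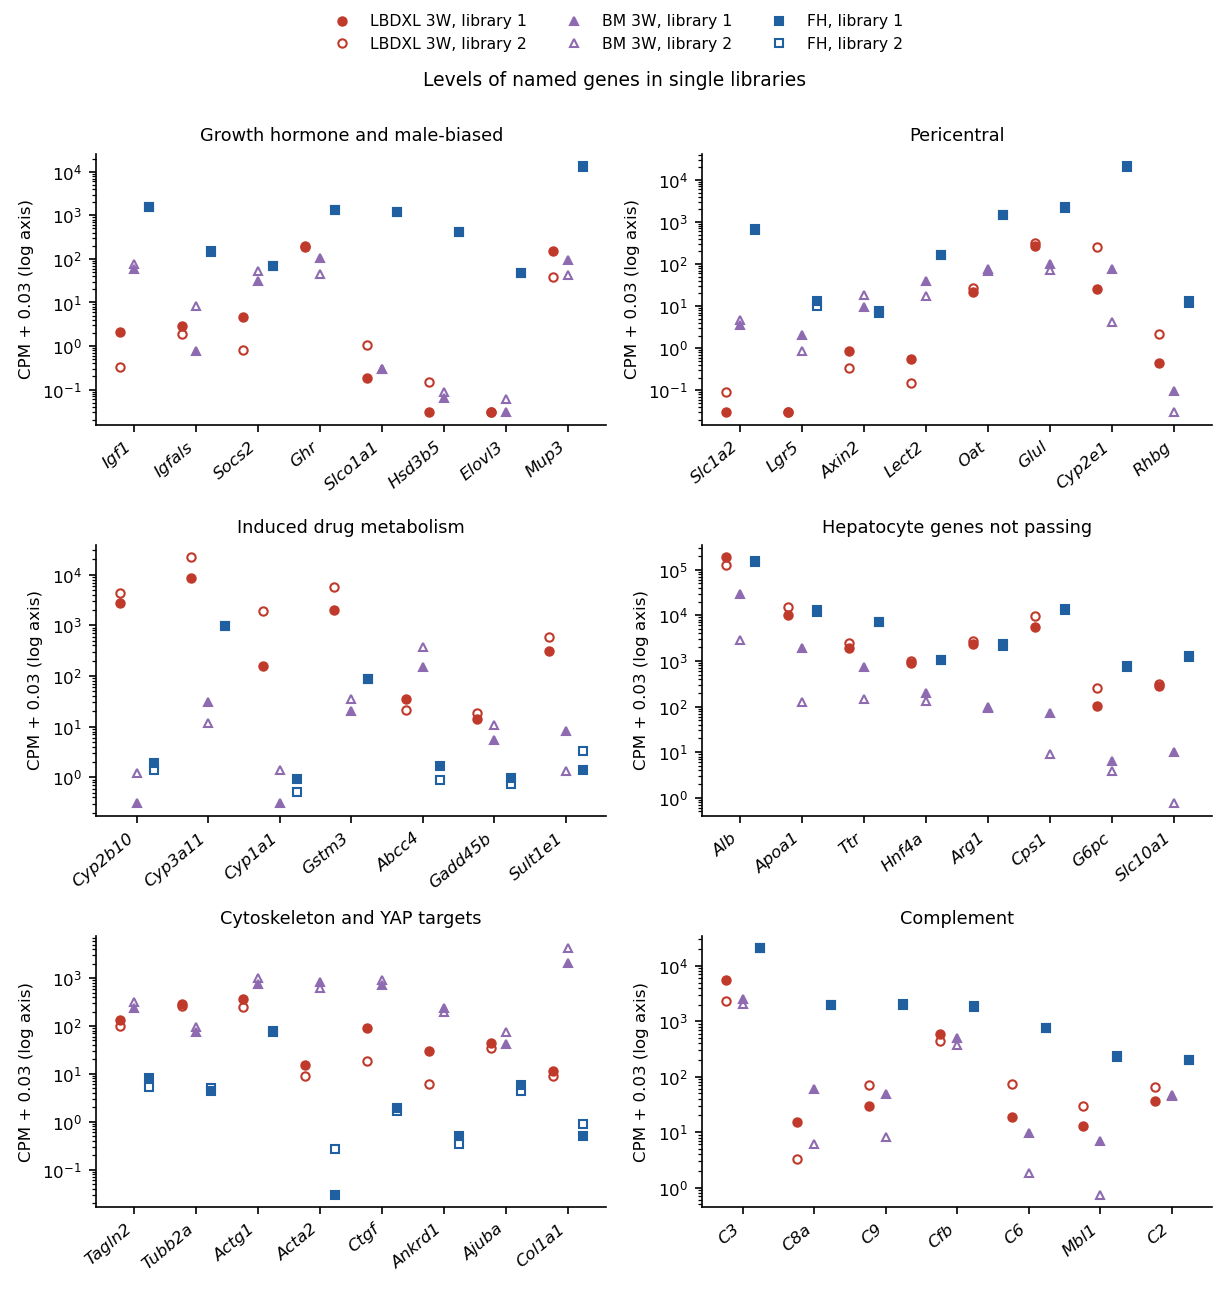
Levels of 46 genes in each library, as CPM + 0.03 on a log axis, in 6 panels by function, with LBDXL 3W left, BM 3W in the middle and FH right, library 1 filled and library 2 open. Igf1, Elovl3 and Slc1a2 lie far lower in LBDXL 3W than in FH, Cyp2b10 and Cyp1a1 lie far higher, and Hnf4a and Arg1 have LBDXL 3W beside FH with BM 3W below both.

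Among secreted proteins, complement genes mostly fell: 14 of 19 fell and 0 rose (0 at an unadjusted p under 0.05 and 0 by DESeq2), with a median log2 fold change of -1.97. The number was 8 without FH 1, FH 2 or LBDXL 3W 1. C8a, a subunit of the membrane attack complex, had 15.3 and 3.26 CPM in LBDXL 3W and 1945 and 1962 CPM in FH (-7.71 ± 1.54, adjusted p = 0.00567). C9, which forms its pore, had 29.2 and 72.1 CPM in LBDXL 3W and 1953 and 2035 CPM in FH (-5.30 ± 0.82, adjusted p = 0.00148). The alternative pathway protease gene Cfb fell to 591 and 437 CPM in LBDXL 3W against 1847 and 1872 CPM in FH (-1.85 ± 0.32, adjusted p = 0.00281). Set against BM 3W, 11 of the 19 were higher in LBDXL 3W (7 without BM 3W 2 or LBDXL 3W 2).

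The other secreted groups fell in part. Of 24 carrier and inhibitor proteins 6 fell (11 without BM 3W 1 or BM 3W 2), of 20 coagulation genes 6 (10 without BM 3W 1 or BM 3W 2, 3 without FH 1 or FH 2 and 2 without LBDXL 3W 1), and of 19 apolipoprotein and lipoprotein genes 6 (3 without LBDXL 3W 1). The corticosteroid-binding globulin gene Serpina6 had 1.85 and 7.73 CPM in LBDXL 3W and 562 and 555 CPM in FH (-6.87 ± 1.31, adjusted p = 0.00445). Hepatic lipase (Lipc) fell to 4.12 and 2.17 CPM in LBDXL 3W against 228 and 226 CPM in FH (-6.16 ± 0.85, adjusted p = 0.000800). Apoa5, a plasma triglyceride regulator, fell to 9.09 and 46.7 CPM in LBDXL 3W against 1355 and 1399.9 CPM in FH (-5.63 ± 1.17, adjusted p = 0.00682). In the same groups, the levels of fetuin-A (Ahsg) were 16018 and 9305 CPM in LBDXL 3W and 14404 and 14641 CPM in FH, and those of the vitamin D carrier Gc were 11281 and 9858 CPM in LBDXL 3W and 11317 and 11435 CPM in FH; neither passed the test.

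Hamp, which encodes hepcidin, the hormone that limits iron export, had 7.14 and 0.785 CPM in LBDXL 3W, 3.57 and 2.49 CPM in BM 3W and 464 and 502 CPM in FH (-6.91 ± 0.80 against FH, adjusted p = 0.000295). Its neighbour Hamp2 had 0.264 and 0.121 CPM in LBDXL 3W and 37.5 and 36 CPM in FH (-7.50 ± 0.69, adjusted p = 8.35e-05), although reads of these 2 similar genes may have been shared. Acute phase genes as a list had 1 member higher and 6 lower of 20. The member that rose was Lcn2, an iron-siderophore binding protein, at 1922 and 38.5 CPM in LBDXL 3W and 16.6 and 15.8 CPM in FH. The Lcn2 call was lost without FH 1 (adjusted p = 0.0946), without FH 2 (adjusted p = 0.0972), without LBDXL 3W 1 (adjusted p = 0.174) and with the 4 libraries fitted alone (adjusted p = 0.118). The window upstream of Hamp is shown as a liver-specific start at which LBDXL 3W and FH lay far apart, with the 1 match of TTCNNNGAA, the letters bound by STAT dimers, in capitals; it lies on the minus strand at chr7:30944030-30944279 in GRCm38.p6 and is given 5′ to 3′ on that strand from RefSeq.
Hamp: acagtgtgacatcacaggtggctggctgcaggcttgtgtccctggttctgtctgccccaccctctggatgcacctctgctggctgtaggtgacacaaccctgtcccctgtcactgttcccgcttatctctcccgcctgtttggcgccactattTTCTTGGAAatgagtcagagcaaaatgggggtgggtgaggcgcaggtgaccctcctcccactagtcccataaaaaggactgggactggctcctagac
Of all 32851 windows, 7.02% held these letters. Among fallen genes with a window, 2 of 9 growth hormone and STAT5 genes and 1 of 10 male-biased genes held them.

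Most genes of fatty acid oxidation, and a smaller share of amino acid enzymes, fell in LBDXL 3W. Of 25 genes of fatty acid oxidation and ketone synthesis, 15 fell and 0 rose (0 at an unadjusted p under 0.05 and 0 by DESeq2), with a median log2 fold change of -1.33. The number was 8 without FH 1, FH 2 or LBDXL 3W 1. Ppara, the fasting-activated nuclear receptor that drives these genes, had 61.7 and 118 CPM in LBDXL 3W, 23.7 and 4.97 CPM in BM 3W and 713 and 717 CPM in FH (-3.00 ± 0.58 against FH, adjusted p = 0.00493). Cpt1a, which admits long-chain fatty acids to mitochondria, had 140.4 and 269 CPM in LBDXL 3W and 1247 and 1223 CPM in FH (-2.59 ± 0.36, adjusted p = 0.000851). Bdh1, which makes β-hydroxybutyrate, fell to 2.64 and 1.87 CPM in LBDXL 3W against 265 and 259 CPM in FH (-6.85 ± 0.82, adjusted p = 0.000359). In BM 3W it had 55.6 and 23.6 CPM. Among amino acid enzymes 12 of 34 fell (5 without FH 1 or FH 2 and 19 without LBDXL 3W 2) and 1 rose. Cytosolic aspartate aminotransferase (Got1) had 62.3 and 84.8 CPM in LBDXL 3W and 825 and 826 CPM in FH (-3.49 ± 0.32, adjusted p = 8.35e-05). Against BM 3W, 31 of the 34 amino acid enzymes and 21 of the 25 oxidation genes were higher in LBDXL 3W. Of 15 urea cycle and ammonia genes 8 fell against FH (5 without BM 3W YAP-/- 1, BM 3W YAP-/- 2 or LBDXL 3W 1, 4 without FH YAP-/- 1 or FH YAP-/- 2 and 3 without FH 1 or FH 2), and 14 were higher than in BM 3W. Of 30 respiratory chain genes 8 fell (1 without FH 1, 0 without FH 2 or LBDXL 3W 1 and 18 without LBDXL 3W 2), and with scaling to total counts 0 did.

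Among the enzymes of glucose and lipid synthesis, calls were fewer and some ran the other way. Of 18 gluconeogenesis genes 2 fell, Foxo1 and Pck1 (4 without BM 3D 1, BM 3D 2, BM 3W 1 or BM 3W 2 and 1 without FH 1 or FH 2), a share near that of all genes. Pck1, the enzyme that commits oxaloacetate to glucose, had 15 and 175 CPM in LBDXL 3W, 0.309 and 0.329 CPM in BM 3W and 6426 and 6275 CPM in FH (-6.06 ± 0.92 against FH, adjusted p = 0.00135). This call was lost with the 4 libraries fitted alone (adjusted p = 0.0594). Of 25 glycolysis genes 6 rose (2 without FH 1, FH 2 or LBDXL 3W 1) and 2 fell. Pkm, the pyruvate kinase gene of most tissues other than liver, had 261 and 123 CPM in LBDXL 3W, 519 and 541 CPM in BM 3W and 3.98 and 4.35 CPM in FH (5.53 ± 0.42 against FH, adjusted p = 2.82e-05). Fatty acid synthesis genes had 5 higher and 2 lower of 22 (22.7% and 9.1%, against 11.7% and 9.6% of all genes). Fatty acid synthase (Fasn) rose to 1602 and 3536 CPM in LBDXL 3W against 298 and 289 CPM in FH (3.13 ± 0.39, adjusted p = 0.000433). BM 3W had 313 and 293 CPM. The desaturase Scd2, which adult hepatocytes express little, had 475 and 657 CPM in LBDXL 3W and 2.94 and 0.871 CPM in FH (8.21 ± 0.78, adjusted p = 9.98e-05). Of 24 cholesterol synthesis and uptake genes 4 rose, a share of 16.7% against 11.7% of all genes. Fewer rose without FH 1, FH 2 or LBDXL 3W 2.

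Drug metabolism held some of the largest rises over FH and also deep falls. Of 22 CAR and PXR target genes 7 rose (3 without FH 1 or FH 2) and 2 fell, with a median log2 fold change of 1.20. Without LBDXL 3W 2 as many members fell as rose, so the surplus of rises in this list rested on that library. Cyp2b10, the classical CAR target (chromosome 7, 25897658 to 25926624 in GRCm38.p6), had 2698 and 4348 CPM in LBDXL 3W, 0.274 and 1.2 CPM in BM 3W and 1.91 and 1.35 CPM in FH (11.08 ± 1.03 against FH, adjusted p = 8.85e-05). Cyp3a11, the classical PXR target, had 8728 and 21955 CPM in LBDXL 3W, 30.5 and 11.6 CPM in BM 3W and 949 and 982 CPM in FH (3.99 ± 0.99 against FH, adjusted p = 0.0165), and was the third most abundant transcript per length in LBDXL 3W 2. Its call was lost without FH 1 (adjusted p = 0.118) and without FH 2 (adjusted p = 0.114). Gstm3, a glutathione transferase induced through the same receptors, had 1991 and 5625 CPM in LBDXL 3W and 86.4 and 85.9 CPM in FH (5.47 ± 0.73, adjusted p = 0.000658). Cyp1a1, the classical AHR target, had 159 and 1893 CPM in LBDXL 3W, 0.274 and 1.38 CPM in BM 3W and 0.875 and 0.475 CPM in FH (10.56 ± 1.98 against FH, adjusted p = 0.00407). This call was lost without FH 2 (adjusted p = 0.0533). Cyp1a2, the other AHR target of liver, had 311 and 4367 CPM in LBDXL 3W and 1580.4 and 1539 CPM in FH, where the groups overlapped (adjusted p = 0.764). Sequence-similar P450 and glutathione transferase genes can share reads, so the division among neighbours is uncertain.

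Outside these targets more enzymes fell than rose. Of 30 oxidation and hydrolysis enzymes 1 rose and 9 fell (5 without FH 1 or FH 2 and 15 without LBDXL 3W 2), and of 27 conjugation enzymes 2 rose and 9 fell (14 without LBDXL 3W 2). Of the 2 lists, 3.3% and 7.4% rose, against 11.7% of all genes, and 30% and 33.3% fell, against 9.6%. The carboxylesterase Ces3a had 1.43 and 4.71 CPM in LBDXL 3W and 3413 and 3400.1 CPM in FH (-10.12 ± 0.98, adjusted p = 0.000112). Akr1c6, a steroid reductase, had 2.27 and 2.96 CPM in LBDXL 3W, 128 and 24 CPM in BM 3W and 1796 and 1833 CPM in FH (-9.44 ± 1.34 against FH, adjusted p = 0.000892). Of 22 drug and bile transporters 2 rose and 10 fell (6 without FH 1 or FH 2). Of 18 bile acid genes 1 rose and 6 fell (13 without LBDXL 3W 2). Nr0b2, the small heterodimer partner that bile acids induce through FXR, fell to 0.264 and 0.242 CPM in LBDXL 3W against 16.5 and 15.4 CPM in FH (-5.94 ± 1.21, adjusted p = 0.00636). Against BM 3W, 25 of the 30 oxidation and hydrolysis enzymes and 19 of the 22 CAR and PXR targets were higher in LBDXL 3W.

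The windows upstream of the 3 induced P450 genes are shown because these genes had some of the largest rises. Capitals mark GCGTG, the core bound by AHR, in Cyp2b10 and Cyp1a1, and CAAAGTCC, letters bound by HNF4A and related receptors, in Cyp3a11, on either strand. From RefSeq in GRCm38.p6, 250 bases each and 5′ to 3′ on the gene's strand, Cyp2b10 is at chr7:25897408-25897657 on the plus strand, Cyp3a11 at chr5:145879855-145880104 on the minus strand and Cyp1a1 at chr9:57697363-57697612 on the plus strand, where further starts of Cyp1a1 lie upstream.
Cyp2b10: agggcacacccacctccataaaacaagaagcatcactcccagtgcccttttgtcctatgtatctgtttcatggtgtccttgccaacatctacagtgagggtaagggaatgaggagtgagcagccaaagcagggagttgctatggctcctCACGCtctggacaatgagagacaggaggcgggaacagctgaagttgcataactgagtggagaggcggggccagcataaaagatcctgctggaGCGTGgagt
Cyp3a11: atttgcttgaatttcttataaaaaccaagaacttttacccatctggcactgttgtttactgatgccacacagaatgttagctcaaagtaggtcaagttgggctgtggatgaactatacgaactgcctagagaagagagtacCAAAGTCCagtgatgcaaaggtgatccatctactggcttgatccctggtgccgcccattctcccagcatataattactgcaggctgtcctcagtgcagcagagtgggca
Cyp1a1: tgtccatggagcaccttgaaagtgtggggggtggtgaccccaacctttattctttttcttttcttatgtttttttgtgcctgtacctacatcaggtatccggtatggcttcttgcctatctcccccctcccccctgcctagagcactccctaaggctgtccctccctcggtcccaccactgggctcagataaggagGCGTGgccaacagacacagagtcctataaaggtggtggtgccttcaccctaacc
GCGTG matched 2 times in the window of Cyp2b10 and 1 time in that of Cyp1a1, and was held by 28.2% of all windows. CAAAGTCC matched 1 time in that of Cyp3a11 and was held by 1.2% of all windows. Of the 7 CAR and PXR targets that rose, 6 had a window and 1 of these held it. The best-described enhancers bound by CAR, PXR and AHR at these genes lie farther upstream than these windows reach.

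Regulators of these programmes changed to different degrees. Of 24 hepatocyte transcription factor genes 1 rose and 8 fell, with a median of -0.98, and fewer fell with 1 of several libraries left out: 3 without FH YAP-/- 1, FH YAP-/- 2 or LBDXL 3W 1 and 2 without FH 1 or FH 2. Set against BM 3W, 16 of the 24 were higher in LBDXL 3W. Clock genes split, with 2 higher and 4 lower of 20 (7 without LBDXL 3W 2 for the lower ones). The clock calls were 10% and 20% of the list, against 11.7% and 9.6% of all genes. Arntl, the positive arm of the clock, rose to 42.9 and 22.1 CPM in LBDXL 3W against 1.43 and 2.22 CPM in FH (4.15 ± 0.38, adjusted p = 8.35e-05). Dbp, an output factor that peaks opposite to it, fell to 1.74 and 6.28 CPM in LBDXL 3W against 129.7 and 134 CPM in FH (-5.05 ± 0.67, adjusted p = 0.000639). The labels give no time of day for any library. Glucocorticoid receptor targets had 6 higher and 2 lower of 20. Among them Fkbp5, a chaperone that dampens the receptor, had 558 and 669 CPM in LBDXL 3W, 47.4 and 23 CPM in BM 3W and 190.0 and 187 CPM in FH (1.70 ± 0.31 against FH, adjusted p = 0.00357). Zbtb16, a zinc finger factor, had 225 and 165 CPM in LBDXL 3W and 24.2 and 18.4 CPM in FH (3.20 ± 0.35, adjusted p = 0.000226). The oestrogen sulfotransferase Sult1e1 rose to 312 and 589.5 CPM in LBDXL 3W against 1.35 and 3.32 CPM in FH (7.59 ± 1.20, adjusted p = 0.00169).

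**Figure D3:**
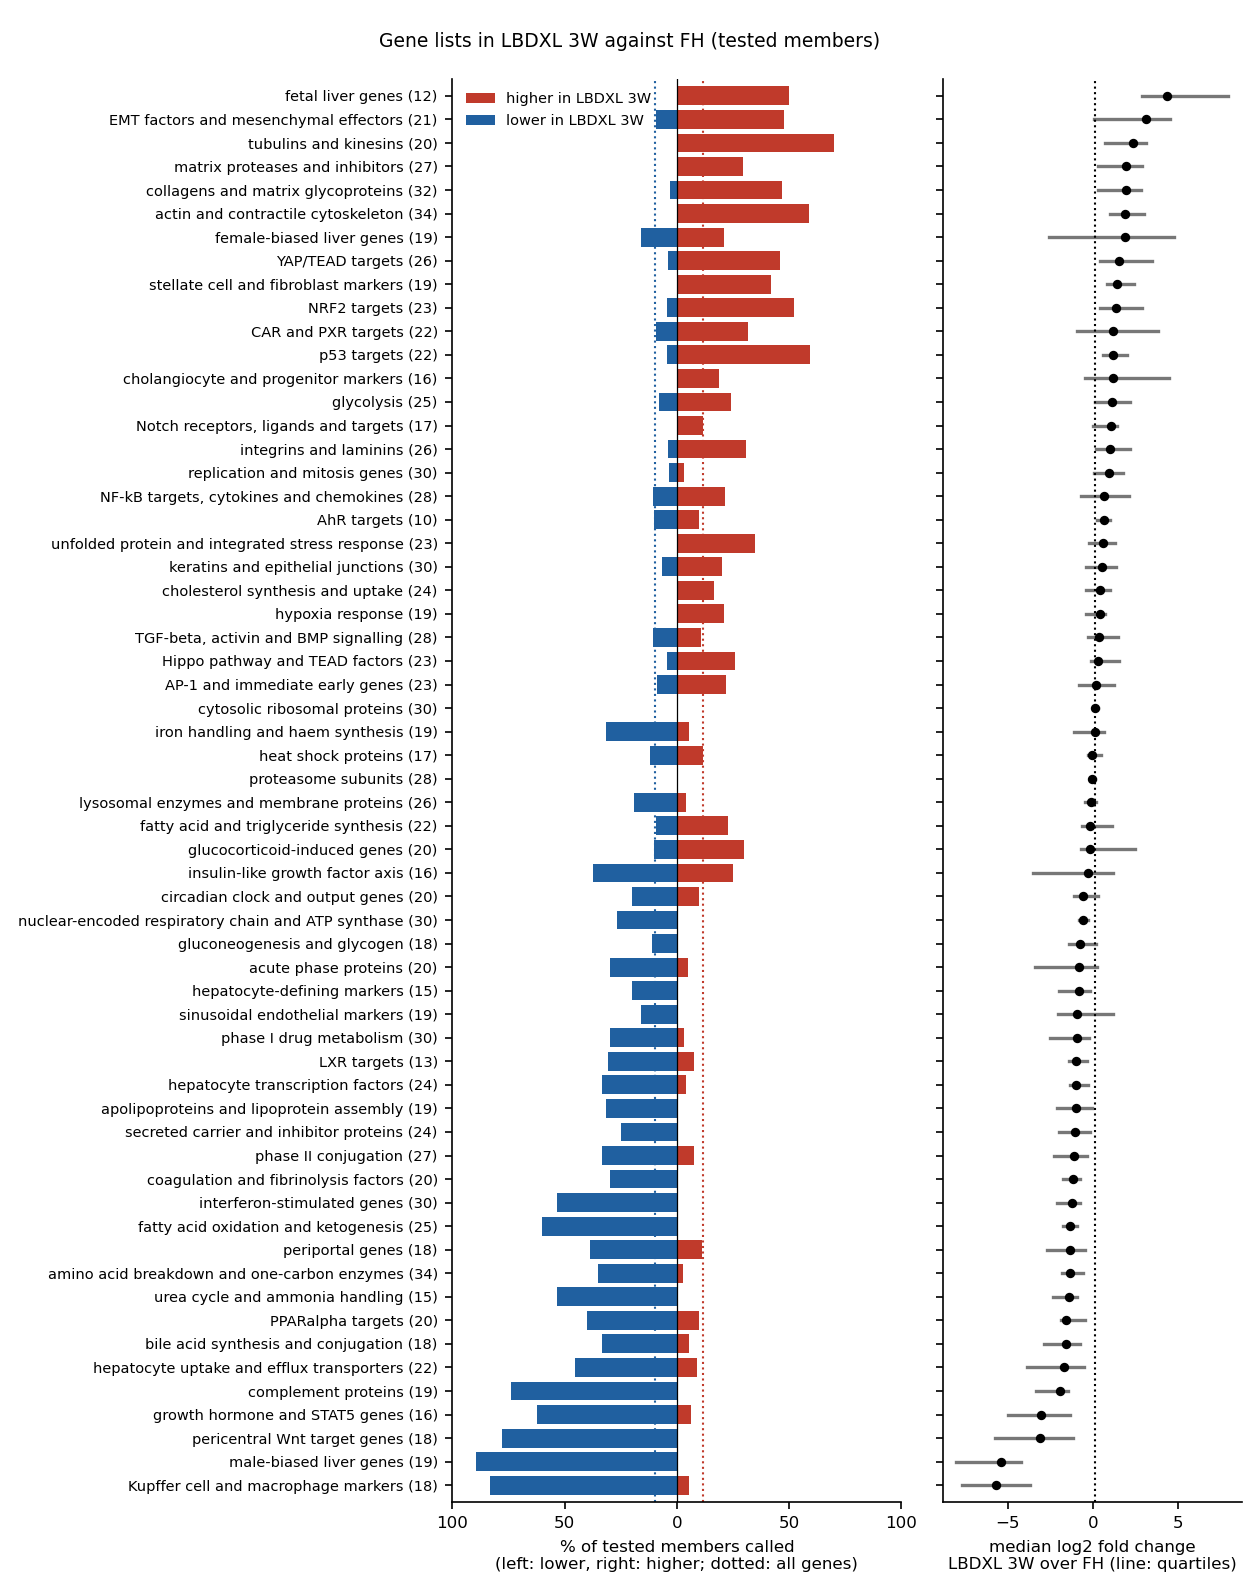
For each of 60 gene lists with at least 10 tested members, the left panel gives the percent of members called lower (to the left) and higher (to the right) in LBDXL 3W than in FH, with dotted lines at 9.6% and 11.7% for all genes, and the right panel gives the median log2 fold change with quartiles. Male-biased, Kupffer and pericentral lists lie at the low end, and the actin, tubulin and YAP target lists lie to the right.

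Most cytoskeleton genes were above FH, and most actin genes were below BM 3W. Of 34 actin and myosin genes 20 rose and 0 fell (0 at an unadjusted p under 0.05 and 0 by DESeq2), with a median log2 fold change of 1.89 (12 without FH 1 and 13 without FH 2 or LBDXL 3W 1 for the risen ones). Set against BM 3W, 25 of the 34 were lower in LBDXL 3W and 1 was higher, with a median of -1.78. The smooth muscle actin gene Acta2 had 15.2 and 9.06 CPM in LBDXL 3W, 816 and 626 CPM in BM 3W and 0 and 0.237 CPM in FH, and was higher than in FH by 104-fold (95% counting interval 35.3 to 505). The actin-bundling protein gene Tagln2 had 131 and 98.4 CPM in LBDXL 3W, 233 and 312 CPM in BM 3W and 8.27 and 5.22 CPM in FH (4.08 ± 0.31 against FH, adjusted p = 2.82e-05). The tropomyosin gene Tpm1 had 175 and 97.1 CPM in LBDXL 3W, 869 and 812 CPM in BM 3W and 29.8 and 31.7 CPM in FH (2.15 ± 0.31 against FH, adjusted p = 0.000915). LBDXL 3W thus lay between BM 3W and FH at all 3 genes. Of 20 tubulin and kinesin genes 14 rose and 0 fell (0 at an unadjusted p under 0.05 and 0 by DESeq2), with a median of 2.36, and fewer rose with 1 library left out: 8 without FH 1, 7 without FH 2 and 9 without LBDXL 3W 1. Set against BM 3W, 6 of the 20 were higher in LBDXL 3W and 10 were lower, with a median of -1.10. Over all genes 21.1% were higher and 23.7% lower in that comparison. Fewer of the 20 were lower without LBDXL 3W 2. Tubb2a, a β-tubulin, was higher in LBDXL 3W than in both others, at 282 and 266 CPM in LBDXL 3W, 73.4 and 93 CPM in BM 3W and 4.29 and 5.14 CPM in FH (5.86 ± 0.37 against FH, adjusted p = 1.75e-05), as was Tubb4b at 295 and 372 CPM in LBDXL 3W, 139 and 149 CPM in BM 3W and 43.6 and 41.7 CPM in FH (2.97 ± 0.30 against FH, adjusted p = 0.000151).

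Targets of YAP and TEAD rose in part over FH, and most were below BM 3W. Of 26 tested 12 rose and 1 fell against FH, with a median log2 fold change of 1.50 (1.33 with genes at 0 in a group set to their bound), and the number that rose was 7 without FH 1 or FH 2. Set against BM 3W, 20 of the 26 were lower in LBDXL 3W and 1 was higher, with a median of -2.55. Ctgf, a secreted matricellular protein and standard readout of YAP, had 90 and 18.7 CPM in LBDXL 3W, 719 and 902 CPM in BM 3W and 1.91 and 1.66 CPM in FH (4.92 ± 0.70 against FH, adjusted p = 0.000947). Ankrd1, a nuclear and sarcomeric ankyrin repeat protein, had 30.2 and 6.16 CPM in LBDXL 3W, 236 and 191 CPM in BM 3W and 0.477 and 0.317 CPM in FH (5.50 ± 0.98 against FH, adjusted p = 0.00306). Ajuba, a LIM protein that restrains the Hippo kinases LATS1 and LATS2, had 43.7 and 35.2 CPM in LBDXL 3W, 41.3 and 74.1 CPM in BM 3W and 5.73 and 4.27 CPM in FH (2.98 ± 0.36 against FH, adjusted p = 0.00038), so LBDXL 3W 1 reached the level of BM 3W 1. Ctgf and Ankrd1 were each several times higher in LBDXL 3W 1 than in LBDXL 3W 2, and both LBDXL 3W libraries were above both FH libraries. Cyr61, another standard target, had 84.7 and 9.73 CPM in LBDXL 3W and 14.9 and 12.7 CPM in FH, where the groups overlapped (adjusted p = 0.17).

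Upstream windows of Ajuba and Ankrd1 are shown as those of the 12 risen YAP targets whose calls held in every alternative and that had a window; the core letters GGAATG bound by TEAD factors are in capitals on either strand. Both genes are on the minus strand in GRCm38.p6, Ajuba at chr14:54577662-54577911 and Ankrd1 at chr19:36119845-36120094, and are given 5′ to 3′ on that strand from RefSeq.
Ajuba: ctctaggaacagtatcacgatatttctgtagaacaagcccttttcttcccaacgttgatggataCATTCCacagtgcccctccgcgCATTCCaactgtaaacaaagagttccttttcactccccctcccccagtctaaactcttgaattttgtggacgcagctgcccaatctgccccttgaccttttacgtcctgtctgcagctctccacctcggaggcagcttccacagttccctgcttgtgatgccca
Ankrd1: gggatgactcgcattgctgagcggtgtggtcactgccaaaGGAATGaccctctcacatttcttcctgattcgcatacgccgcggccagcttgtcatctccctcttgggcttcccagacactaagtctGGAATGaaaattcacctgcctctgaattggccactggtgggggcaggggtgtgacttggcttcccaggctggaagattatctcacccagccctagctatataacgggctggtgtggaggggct
Each window held 2 matches. Of the 12 risen targets 9 had a window, and 4 of these (Ajuba, Ankrd1, Crim1 and Ptpn14) held the letters. Of all windows, counted singly rather than by gene, 12.6% held them. The risen genes are on the list as YAP targets, and the counts of letters say nothing of binding in these cells.

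Matrix genes rose in part. Of 32 collagen and matrix genes 15 rose and 1 fell, with a median log2 fold change of 1.91, and fewer rose with 1 library left out: 4 without FH 1, 3 without FH 2 and 6 without LBDXL 3W 1. Their levels summed to 11592 and 5518 CPM in LBDXL 3W, 34436 and 39254 CPM in BM 3W and 9917 and 9792 CPM in FH, so the sum was above FH in LBDXL 3W 1 and below it in LBDXL 3W 2. Set against BM 3W, 28 of the 32 were lower in LBDXL 3W and 2 were higher, with a median of -4.90. Col1a1, a chain of fibrillar collagen I, had 11.3 and 9.06 CPM in LBDXL 3W, 2092 and 4165 CPM in BM 3W and 0.477 and 0.871 CPM in FH (3.90 ± 0.78 against FH, adjusted p = 0.00563). The Col1a1 call was lost without FH 1 (adjusted p = 0.0638) and with limma on log2(FPKM + 1) (adjusted p = 0.0504). Of 21 genes associated with epithelial to mesenchymal change 10 rose (6 without FH 1 or FH 2) and 2 fell, with a median of 3.10 (2.78 with genes at 0 in a group set to their bound). S100a11, a calcium-binding protein, had 121 and 19.8 CPM in LBDXL 3W, 267 and 260.4 CPM in BM 3W and 0.875 and 0.633 CPM in FH (6.53 ± 0.77 against FH, adjusted p = 0.000343). The annexin Anxa1 had 21.5 and 10.9 CPM in LBDXL 3W, 256 and 231 CPM in BM 3W and 0.636 and 1.03 CPM in FH (4.28 ± 0.50 against FH, adjusted p = 0.000317). Of 27 matrix protease and inhibitor genes 8 rose (2 without FH 1 and 3 without FH 2 or LBDXL 3W 1), and of 26 integrin and laminin genes 8 rose and 1 fell (5 without BM 3W YAP-/- 1 and 2 without FH 1, FH 2 or LBDXL 3W 1 for the risen ones). Stellate cell and fibroblast markers moved with these groups: 8 of 19 rose (4 without FH 2), their levels summed to 759 and 376 CPM in LBDXL 3W, 10023 and 11632 CPM in BM 3W and 188 and 157 CPM in FH, and Dcn alone made up 323 and 160.3 CPM in LBDXL 3W. Their part in the matrix result was not tested.

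Proliferation genes gave few calls against FH, whereas 50% of the fetal liver genes tested rose. Of 30 proliferation genes 1 rose (Mcm2) and 1 fell (Tk1), and Mki67, a marker of cycling cells, had 7.4 and 0.785 CPM in LBDXL 3W, 108 and 44.3 CPM in BM 3W and 1.35 and 1.58 CPM in FH (adjusted p against FH = 0.369). Set against BM 3W, 25 of the 30 were lower in LBDXL 3W (12 without BM 3W 1 or LBDXL 3W 2). Fetal liver genes had 6 higher of 12 (2 without FH 1 or FH 2), with a median of 4.37 (3.30 with genes at 0 in a group set to their bound). Among them Cd24a, a surface glycoprotein of progenitor cells, had 258 and 26.8 CPM in LBDXL 3W, 186 and 229.6 CPM in BM 3W and 0.398 and 0.871 CPM in FH (7.80 ± 1.41 against FH, adjusted p = 0.00338). The imprinted gene Peg3 had 49.7 and 63.8 CPM in LBDXL 3W, 135 and 49 CPM in BM 3W and 7.55 and 5.94 CPM in FH (3.07 ± 0.53 against FH, adjusted p = 0.00273). Osteopontin (Spp1), a secreted protein of duct and injured liver cells, had 15.2 and 9.61 CPM in LBDXL 3W, 4338 and 5038 CPM in BM 3W and 25.2 and 21.8 CPM in FH, a difference of -8.56 ± 0.86 against BM 3W (adjusted p = 5.69e-05) and none that passed against FH (adjusted p = 0.335). The duct transcription factor gene Sox9 had 9.04 and 4.53 CPM in LBDXL 3W, 48.6 and 57.1 CPM in BM 3W and 3.66 and 3.01 CPM in FH. Alpha-fetoprotein (Afp) had 40.9 and 23.8 CPM in LBDXL 3W, 793 and 259 CPM in BM 3W and 1.91 and 2.22 CPM in FH (3.97 ± 0.90 against FH, adjusted p = 0.0106). The call for Afp was lost without FH 1 (adjusted p = 0.0886) and without FH 2 (adjusted p = 0.0766).

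Stress programmes were raised in part, and not in every list. Of 22 p53 targets 13 rose (4 without FH 1, 5 without FH 2 and 6 without LBDXL 3W 1) and 1 fell, with a median log2 fold change of 1.19. Cdkn1a, the cyclin-dependent kinase inhibitor p21, had 246 and 103 CPM in LBDXL 3W, 153 and 202 CPM in BM 3W and 1.75 and 1.5 CPM in FH (6.74 ± 0.51 against FH, adjusted p = 2.82e-05), so LBDXL 3W was near BM 3W at this gene. Tnfrsf10b, a death receptor, had 16 and 5.98 CPM in LBDXL 3W and 0.0795 and 0.396 CPM in FH (5.49 ± 0.68, adjusted p = 0.000439). Of 23 NRF2 targets 12 rose (4 without FH 1 or FH 2) and 1 fell, with a median of 1.33. Pgd, of the pentose phosphate pathway, had 228 and 190.1 CPM in LBDXL 3W and 41.9 and 34.7 CPM in FH (2.45 ± 0.40, adjusted p = 0.00197). Nqo1, a widely used NRF2 readout, had 5.23 and 12.8 CPM in LBDXL 3W and 4.77 and 6.41 CPM in FH and overlapped (adjusted p = 0.396). Of 23 genes of the unfolded protein and amino acid responses 8 rose (4 without FH 1, FH 2 or LBDXL 3W 1). Asparagine synthetase (Asns) had 87.5 and 43.5 CPM in LBDXL 3W and 9.07 and 9.81 CPM in FH (2.79 ± 0.33, adjusted p = 0.000356). Calr, a chaperone of the endoplasmic reticulum, lay inside 2-fold at 869 and 879 CPM in LBDXL 3W and 1045 and 1083 CPM in FH. Of 17 heat shock genes 2 rose and 2 fell, with a median of -0.06 and 8 inside 2-fold. Of 23 AP-1 and immediate early genes 5 rose and 2 fell (median 0.16), and of 19 hypoxia genes 4 rose (median 0.39). In the last 2 lists fewer rose without FH 1, FH 2 or LBDXL 3W 1.

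Many interferon-stimulated genes fell in LBDXL 3W. Of 30 tested 16 fell and 0 rose by edgeR (2 at an unadjusted p under 0.05 and 1 by DESeq2), with a median log2 fold change of -1.23 (6 without FH 1, 9 without FH 2 or LBDXL 3W 1 and 10 without LBDXL 3W 2 for the fallen ones). The RNA sensor gene Ifih1 had 34.1 and 22.4 CPM in LBDXL 3W, 41.9 and 23.7 CPM in BM 3W and 93.2 and 90.5 CPM in FH (-1.70 ± 0.30 against FH, adjusted p = 0.00281). The immunoproteasome subunit Psmb8 had 10.1 and 6.95 CPM in LBDXL 3W, 13.4 and 14.7 CPM in BM 3W and 26.6 and 22.7 CPM in FH (-1.53 ± 0.29 against FH, adjusted p = 0.00456). The chemokine Cxcl9 fell to 0.264 and 0 CPM in LBDXL 3W against 9.94 and 10.1 CPM in FH (-6.10 ± 0.88, adjusted p = 0.000998). Kupffer cell and macrophage markers fell in the same libraries, 15 of 18, and their part in this result was not tested.

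Markers of other liver cells differed between the groups as well, and in such bulk samples fewer cells of a type and less RNA per cell cannot be told apart. Of 18 Kupffer cell and macrophage markers 15 fell and 1 rose, with a median of -5.71 (-4.99 with genes at 0 in a group set to their bound), and the summed level was 43.3 and 47.7 CPM in LBDXL 3W, 3769.8 and 4467 CPM in BM 3W and 278 and 214 CPM in FH. Clec4f, specific to mouse Kupffer cells, was at 0 in both LBDXL 3W libraries and at 27.3 and 17.1 CPM in FH, at least 131-fold lower. Timd4 and Aif1 were also at 0 in both LBDXL 3W libraries, and Csf1r, the receptor macrophages need to survive, had 0.529 and 0.483 CPM in LBDXL 3W, 239 and 174 CPM in BM 3W and 20.9 and 14.5 CPM in FH (-5.11 ± 0.37 against FH, adjusted p = 2.61e-05). Mpeg1, at 29.3 and 36.7 CPM in LBDXL 3W, and Cd14, the member that rose, at 7.82 and 5.68 CPM against 1.03 and 0.95 CPM in FH (2.76 ± 0.44, adjusted p = 0.00178), made up most of what remained in LBDXL 3W. Of 19 endothelial markers 3 fell (0 without FH 1 or FH 2 and 11 without LBDXL 3W 1). Without LBDXL 3W 2 the list turned the other way, with 6 members higher and 2 lower. The summed level was 308 and 28.8 CPM in LBDXL 3W 1 and 2 and 247 and 197 CPM in FH. Pecam1, the endothelial adhesion molecule CD31, had 31 and 0.785 CPM in LBDXL 3W 1 and 2 and 7.16 and 6.17 CPM in FH, so the 2 LBDXL 3W libraries lay on either side of FH. Of 16 bile duct markers 3 rose, a share of 18.8% against 11.7% of all genes. Fewer rose without FH 1, FH 2 or LBDXL 3W 1 and more without LBDXL 3W 2. The duct keratin Krt19 had 1.27 and 0.121 CPM in LBDXL 3W, 21.5 and 16.9 CPM in BM 3W and 0.0795 and 0 CPM in FH. Of 5 red cell and platelet markers 2 fell, among them Alas2 of haem synthesis at 0.37 and 4.11 CPM in LBDXL 3W and 169 and 170.1 CPM in FH (-6.26 ± 0.76, adjusted p = 0.000388).

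Genes on none of the lists also changed, and those with the smallest adjusted p or the largest change were of mixed function. Nrg1, a ligand of ERBB receptors, was at 25.3 and 30.3 CPM in LBDXL 3W and at 0 in both FH libraries, at least 117-fold higher. F2rl1, a protease-activated receptor, was likewise at 0 in FH and at 11.4 and 10.5 CPM in LBDXL 3W, at least 45.8-fold higher. Cpe, a carboxypeptidase that processes prohormones, had 172 and 14.4 CPM in LBDXL 3W and 0.0795 and 0 CPM in FH, higher by 2484-fold (95% counting interval 446 to 98138). Rab3d, a small GTPase of regulated secretion, rose to 55.6 and 63 CPM in LBDXL 3W against 7.32 and 8.07 CPM in FH (2.94 ± 0.20, adjusted p = 2.05e-05). Pygb, the brain isoform of glycogen phosphorylase, rose to 41.6 and 38.7 CPM in LBDXL 3W against 1.59 and 1.82 CPM in FH (4.55 ± 0.29, adjusted p = 1.75e-05). In the other direction, Esr1, oestrogen receptor α, had 3.38 and 3.14 CPM in LBDXL 3W and 47 and 44.7 CPM in FH (-3.81 ± 0.29, adjusted p = 2.82e-05). Lipg, endothelial lipase, fell to 0.529 and 0.967 CPM in LBDXL 3W against 69.6 and 70.6 CPM in FH (-6.55 ± 0.45, adjusted p = 2.10e-05). Slc25a25, a mitochondrial ATP-magnesium/phosphate carrier, fell to 16.2 and 12.7 CPM in LBDXL 3W against 382 and 346 CPM in FH (-4.65 ± 0.35, adjusted p = 2.82e-05).

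The 2 LBDXL 3W libraries differed from each other by over 2-fold at 16.1% of genes, against 0.915% for the 2 FH libraries. Among the BM groups this share was highest for BM 3D at 13.9% and lowest for the YAP-/- culture at 5.39%. A wide spread was therefore not peculiar to LBDXL 3W. Of the genes over 2-fold between the LBDXL 3W libraries, 1384 were higher in LBDXL 3W 1 and 891 in LBDXL 3W 2. Higher in LBDXL 3W 1 was Apoa4, an intestinal and fasting-induced hepatic apolipoprotein, at 4948 and 123 CPM in LBDXL 3W 1 and 2. Higher in LBDXL 3W 2 were the P450 genes Cyp2c50, at 4.86 and 599.7 CPM in LBDXL 3W 1 and 2, and Cyp2a5, at 101 and 3021 CPM. FH had 131 and 131 CPM of Apoa4, 1943 and 2045 CPM of Cyp2c50 and 2455 and 2479.7 CPM of Cyp2a5, so LBDXL 3W 2 was the nearer of the 2 to FH at all 3 genes. By list, the median log2 ratio of LBDXL 3W 1 over 2 was 2.85 for endothelial markers, 0.72 for actin genes, -0.35 for ribosomal protein genes and -1.34 for oxidation and hydrolysis enzymes. Differences of culture, animal and library preparation cannot be told apart here. Without LBDXL 3W 1 the male-biased, growth hormone and Kupffer lists had 14, 9 and 12 members lower.

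**Figure D4:**
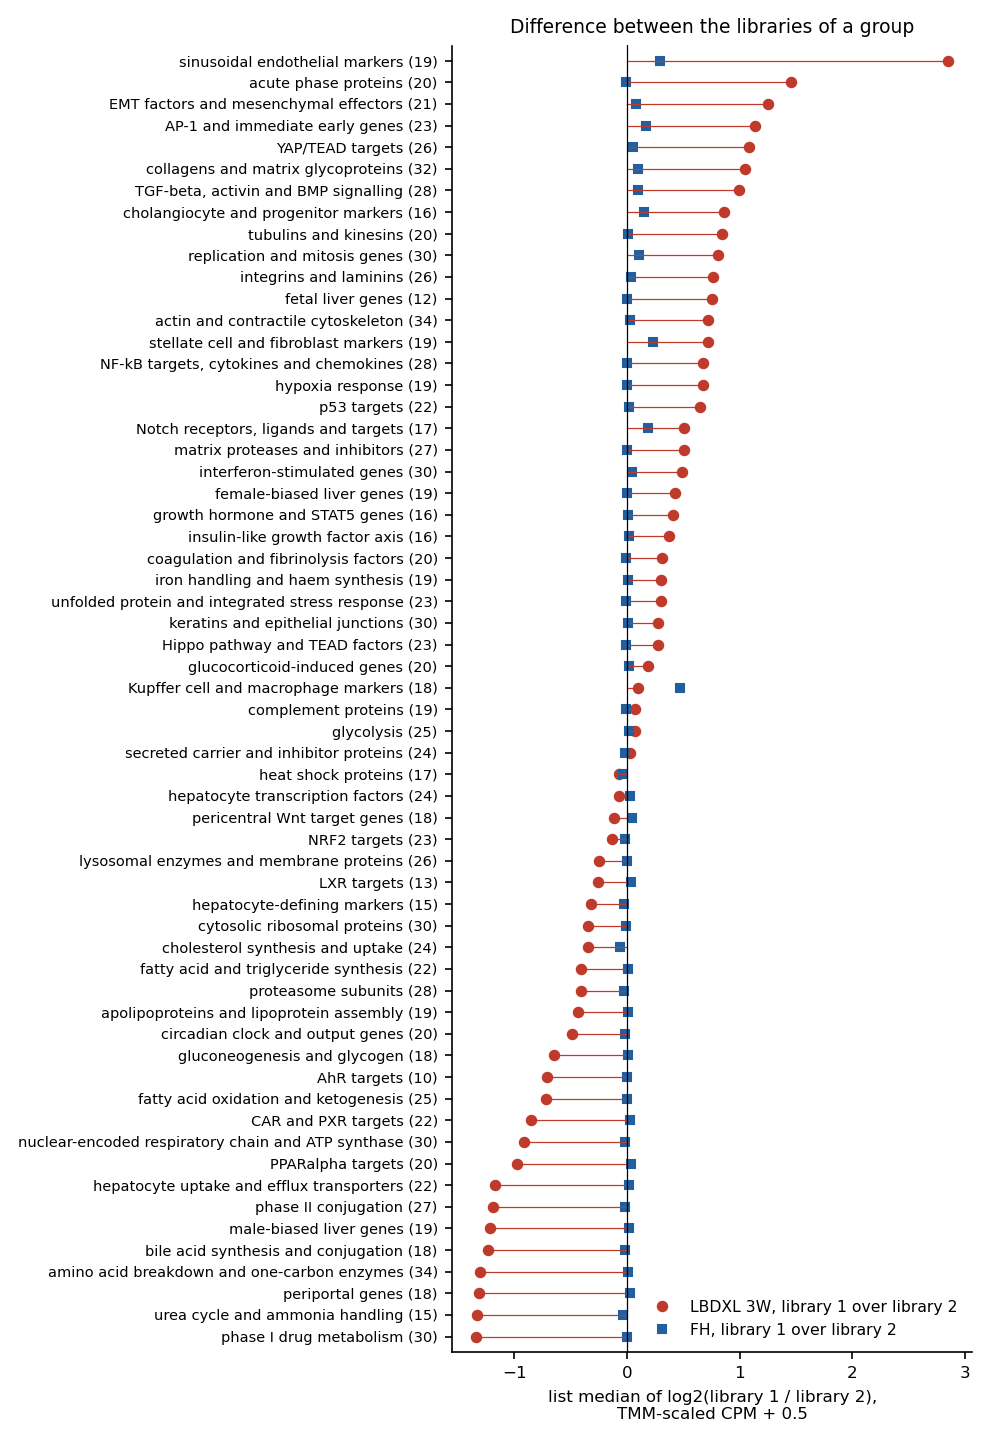
Median over the members of each gene list of the log2 ratio of library 1 over library 2, for LBDXL 3W and for FH, with a vertical line at 0. The LBDXL 3W medians spread from drug-oxidising and amino acid enzymes on the low side to endothelial markers at 2.85 on the high side, whereas most FH medians stay near 0, with Kupffer markers at 0.47 and endothelial markers at 0.29.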

How the data were processed

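The deposited table holds raw counts per gene for 14 mouse liver libraries, from stranded, poly(A)-selected paired-end libraries per the labels, and beside them FPKM computed by the authors. The submitters' processing notes name Trimmomatic, HISAT2, Cufflinks, HTSeq, DESeq and GRCm38.p6, without roles or versions. The sources do not tell whether counting used strand, so overlapping antisense genes, like near-identical paralogs, may share reads. Counts were tested with edgeR 4.0.16 (R 4.3.3): filterByExpr, TMM, 1 mean per group over all 14 libraries, quasi-likelihood F-test and Benjamini-Hochberg adjustment, called under 0.05. Values after ± are standard errors of the log2 fold change, and the pairs of CPM are the 2 libraries of a group, library 1 first. Counting intervals and floors cover counting error only. Deposited FPKM was used to compare levels between genes and in limma 3.58.1 as an alternative, and DESeq2 1.42.0 as another. Of 21878 genes in the table, 14100 passed the filter. On simulated counts of 13562 genes for LBDXL 3W against FH, 20% of 2-fold, 80% of 4-fold and 96% of 8-fold changes were recovered, with 3 false calls among 13362 unchanged genes. The simulation gave all groups the same spread at a gene, whereas the LBDXL 3W libraries lay farther apart than the FH libraries. These rates therefore do not tell how often calls are false in the real comparison.

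The members and the 63 gene lists, with 1194 of 1235 members tested, and the 8 promoter motifs were chosen with earlier results of these data known. Genes were named from a panel, from the 15 largest rises and falls at 10 CPM or more with no overlap between LBDXL 3W and FH, from up to 6 called members of a list by smallest p, from the 10 unlisted genes with the smallest p in each direction, and from members that went against their list. Apoa4 and Cyp2c50 were chosen after their values were seen. Promoter windows are RefSeq's and motifs were searched on both strands. Alternatives were other scalings, filters and tests, a fit of the compared groups alone, a replicate block and each library left out. Results for some genes are not reported here.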

Additional observations from a re-analysis of the deposited data

How the results depend on the processing

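Against FH, the higher calls numbered 774 with the compared groups alone, 3538 and 2752 with limma on log2(FPKM + 0.1) and log2(FPKM + 1), and 3593 with scaling to total counts; the lower calls numbered 776, 716 and 822 in those last 3 settings. Against BM 3W, the higher calls numbered 1437, 1126, 1109 and 1135 in the same 4 settings, and the lower calls 5580, 5653 and 6650 in the last 3. With 1 library left out the counts ran from 533 to 1798 higher and 631 to 1421 lower against FH, and from 1812 to 3099 higher and 2049 to 3458 lower against BM 3W. A limit of 2 on the log2 scale left 390 genes, and an interval inside 0.5 held 497, of which 233 had counts in LBDXL 3W or FH. Of the lists, 13 had 50% or more of their tested members called against FH in the same direction, 7 with the compared groups alone and 3 to 20 with 1 library left out. Psmc1 turned to 0.70 and 0.68, Psmd12 to 0.48 and 0.47 and Hspa8 to 0.61 and 0.61 on the log2 scale with limma, and with 1 library left out Pecam1 ran from -3.07 (without LBDXL 3W 1) to 2.22 (without LBDXL 3W 2) and Cdh5 from -3.85 to 1.84. The cause was not tested. Of the 3009 genes called against FH, 782 were called in all 23 alternatives.

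Library numbers did not pair LBDXL 3W with FH or BM 3W: deviations of same-numbered libraries correlated at 0.097 and 0.045. Over 21 pairs of groups the range was -0.034 to 0.48, the highest between BM 1D and BM 3D. With the replicate number as a block, 1792 genes were higher and 1500 lower against FH. With 2 libraries a group, leaving 1 out leaves a lone library that is assumed to vary like the other groups, and a gene that misses the threshold is not shown to be alike.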
